A study of Mus musculus with 3 samples.

Results

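The replication-dependent histone genes of the mouse are the 67 genes, of 32285 in the matrices, whose symbol starts with Hist1h, Hist2h, Hist3h or Hist4h. They were taken by symbol alone, and their UMIs (unique molecular identifiers, which tag captured transcripts) were summed over cell barcodes gated by marker genes. The libraries came from mouse non-small cell lung cancer, 1 library for each of the groups labelled PBS, PD-L1 and AI-Exo. Genotype, strain, age, dose, time and number of animals were not given in the labels, which do not spell the group names out. All 3 groups share the tissue label, the species and a droplet chemistry that captures polyadenylated RNA at its 3′ end. Barcodes with tumour markers were few, 52, 23 and 50 in the PBS, PD-L1 and AI-Exo libraries. The types described singly below are immune cells by their markers, while values over all types or all barcodes include the tumour-like ones.

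Histones package DNA. H2A, H2B, H3 and H4 form the core particle around which DNA is wound, and H1 binds the linker DNA between particles. The replication-dependent genes are switched on as a cell copies its DNA, and they stand apart from other coding genes because their mRNAs normally end at a short stem-loop in place of a poly(A) tail. The stem-loop is bound by SLBP, which takes part in processing, export, translation and decay of these mRNAs, and the U7 small ribonucleoprotein guides the cut just after it. Some of the genes can also be read through to a downstream polyadenylation site, a form described in cells that have stopped dividing. A chemistry that captures poly(A) RNA counts such polyadenylated forms and samples stem-loop forms poorly, so a UMI here is not a measure of all histone mRNA.

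Stem-loops are shown first, because among members with an annotated stem-loop those that rose and those that fell with division carry nearly the same letters. In GENCODE M21 transcripts, matched by gene identifier for all 67 members, the histone stem-loop of 16 bases was found on the transcript strand in 46 members and in 0.0722% of the other genes. The 21 members without it in the annotated transcript include Hist1h1b and Hist1h2af, which rose in 5 types, and Hist1h2bc, which fell in 2. Their longest annotated transcripts ran from 312 bases in Hist1h4k to 2620 in Hist2h2be, with 399 in Hist1h2af. An annotated transcript can stop before the stem-loop, so its absence there does not show that the gene lacks one. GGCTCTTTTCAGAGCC was the most frequent run, in 26 members, and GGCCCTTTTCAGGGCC followed with 7 members, all of them H4 genes. In the lines below the stem-loop is in capitals, with 7 bases on either side, 5′ to 3′. Hist1h3c, Hist1h2ab and Hist1h3b are among the genes that rose most in dividing T cell-like barcodes, Hist1h1c and Hist3h2a fell there, and Hist1h4i is an H4 gene.
Hist1h3c: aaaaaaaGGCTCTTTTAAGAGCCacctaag
Hist1h2ab: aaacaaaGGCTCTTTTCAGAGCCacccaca
Hist1h3b: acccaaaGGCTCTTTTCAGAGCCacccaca
Hist1h1c: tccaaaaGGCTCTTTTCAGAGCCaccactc
Hist3h2a: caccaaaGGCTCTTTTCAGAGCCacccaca
Hist1h4i: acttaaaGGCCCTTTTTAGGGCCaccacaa

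Promoters are shown for 2 H1 genes that moved in opposite directions with division and for 1 H2A, 1 H3 and 1 H4 gene, because the classes differ in the letters they hold. RefSeq (GRCm38.p6) gave a promoter of 300 bases, from 250 before to 50 after the gene start, for 61 of the 67 members, matched through older symbols. The runs searched on both strands are in capitals. TATAAA stands for the TATA box, and CCAAT is the letters of the element bound by NF-Y. ATTTGCAT is the octamer bound by Oct-1. AAACACA is part of the H1 box, and GGTCCG is part of the H4 site bound by HINFP. Each promoter is printed in the gene's own orientation, so ATTGG marks the second of these runs on the other strand, and ATGCAAAT marks the octamer there. No 2 of the runs overlap in these windows.
Hist1h1b, chr13:21780576-21780875, minus strand: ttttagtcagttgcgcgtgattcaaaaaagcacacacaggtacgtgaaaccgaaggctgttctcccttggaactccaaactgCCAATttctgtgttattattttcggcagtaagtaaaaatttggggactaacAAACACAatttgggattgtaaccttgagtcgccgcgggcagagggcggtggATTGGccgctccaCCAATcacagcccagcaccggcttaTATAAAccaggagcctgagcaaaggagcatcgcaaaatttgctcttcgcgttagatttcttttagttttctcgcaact
Hist1h1c, chr13:23738557-23738856, plus strand: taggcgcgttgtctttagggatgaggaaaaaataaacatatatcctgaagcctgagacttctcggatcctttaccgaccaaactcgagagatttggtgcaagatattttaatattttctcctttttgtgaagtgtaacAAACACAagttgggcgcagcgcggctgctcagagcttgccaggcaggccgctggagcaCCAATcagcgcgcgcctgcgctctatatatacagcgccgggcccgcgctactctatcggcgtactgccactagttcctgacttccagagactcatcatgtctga
Hist1h2ab, chr13:23750838-23751137, plus strand: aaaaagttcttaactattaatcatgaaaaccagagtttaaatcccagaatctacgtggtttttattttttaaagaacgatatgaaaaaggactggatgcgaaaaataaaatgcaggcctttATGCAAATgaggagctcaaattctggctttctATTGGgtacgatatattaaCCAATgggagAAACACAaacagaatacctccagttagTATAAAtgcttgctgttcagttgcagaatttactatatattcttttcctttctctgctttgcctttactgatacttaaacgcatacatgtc
Hist1h3c, chr13:23745472-23745771, minus strand: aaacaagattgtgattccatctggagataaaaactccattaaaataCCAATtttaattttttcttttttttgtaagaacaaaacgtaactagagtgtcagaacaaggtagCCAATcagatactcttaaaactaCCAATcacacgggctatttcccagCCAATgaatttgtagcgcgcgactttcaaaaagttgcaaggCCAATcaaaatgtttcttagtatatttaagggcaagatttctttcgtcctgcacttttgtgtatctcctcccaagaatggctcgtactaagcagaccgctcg
Hist1h4d, chr13:23581318-23581617, plus strand: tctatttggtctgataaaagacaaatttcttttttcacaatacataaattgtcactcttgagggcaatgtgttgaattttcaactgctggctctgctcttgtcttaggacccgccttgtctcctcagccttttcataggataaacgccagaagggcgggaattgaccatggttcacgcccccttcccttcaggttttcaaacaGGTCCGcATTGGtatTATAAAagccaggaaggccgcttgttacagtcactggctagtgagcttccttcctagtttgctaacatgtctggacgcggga

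CCAAT was present in all promoters of H1 (6), H2A (17), H2B (16) and H3 (10) members, in 3 of 12 H4 promoters and in 37.9% of all 27025 RefSeq promoters of the same length. GGTCCG was present in 11 of 12 H4 promoters and in 8.39% of all promoters. AAACACA was present in 5 of 6 H1 promoters, against 7.14% of all promoters, and the H1 promoter without it was that of Hist1h1a. The octamer occurred in 7 of 17 H2A and 6 of 16 H2B promoters and in 0 of the H1, H3 and H4 ones, against 1.75% of all promoters. TATAAA was present in 57.4% of the members' promoters and in 14.2% of all. Hist1h1b and Hist1h1c both hold CCAAT and AAACACA, and TATAAA is in the Hist1h1b window and not in that of Hist1h1c. A match describes these letters and does not show a bound site.

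The matrices hold between 65997942 and 76512500 UMIs per library. After filters of at least 500 UMIs, at least 200 genes and at most 20% mitochondrial UMIs, 9359, 9697 and 10457 barcodes remained in PBS, PD-L1 and AI-Exo, with medians of 4380, 3948 and 4425 UMIs. Pairs of libraries shared 23 to 33 barcode sequences, and 0 were in all 3. A barcode counted as dividing with UMIs of at least 4 of 17 division genes such as Mki67 and Top2a, none of them a histone gene, and as resting with at most 1. The immature T lineage-like class, gated by markers such as Rag1, Rag2 and Dntt, held 707 barcodes in PBS and 739 in PD-L1. It held 0 of 10457 in AI-Exo, which allows a share of up to 0.0287%. Within the class the summed precursor markers stood at 2126 and 2554 CPM (a gene's UMIs per 1000000 UMIs of the summed barcodes) in resting and 1283 and 1307 CPM in dividing barcodes of PBS and PD-L1.

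The 67 members took 428769 UMIs, of which 160308 came from PBS, 145659 from PD-L1 and 122802 from AI-Exo. These totals depend on the types present: PBS and PD-L1 include 707 and 739 immature T lineage-like barcodes, of which AI-Exo held 0. UMIs were found for 66 members. Hist1h2aa, an H2A gene known from testis, had 0, and Hist1h2ba, Hist2h2aa2, Hist1h2bq and Hist1h1t (the testis H1) had under 50 each. The counts were uneven: Hist1h2bc, an H2B gene, held 90579 UMIs and Hist1h1c, a linker histone gene, 79712, together 39.7% of the family, and the 10 members with most UMIs held 74.8%. By class, the 6 H1 genes held 38.6% of the UMIs, the 18 H2A genes 13.7%, the 18 H2B genes 30.7%, the 12 H3 genes 5.38% and the 13 H4 genes 11.6%. These shares are of captured UMIs, uncorrected for length or for the form of the 3′ end, and do not rank the genes' expression.

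Near-identical copies limit what can be said of single members. In 27 of the 67, over 50% of the 90-base windows of the transcripts also occur in another gene, up to all windows in Hist2h2aa2 and Hist2h3c1, so reads could be split or dropped between copies. Of the members described in detail, Hist1h1c shared 5.71% of its windows, Hist1h2bc 26.1%, Hist1h3c 31.6%, Hist1h2ab 53.6% and Hist1h2af 66.5%. Another gene overlaps 7 members on the same strand. Hist1h1e and Hist1h2be overlap each other, so their separate values are uncertain, and Hist3h2a overlaps Trim17.

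Dividing T cell-like barcodes had a higher share of histone UMIs than resting ones in every library. The summed level of the family was 1789, 1544 and 1184 CPM in resting T cell-like barcodes of PBS, PD-L1 and AI-Exo, and 3871, 4730 and 4268 CPM in dividing ones. The dividing sums rest on 56, 91 and 249 barcodes and the resting ones on 1808, 1573 and 1870. The 2 states did not overlap. Dividing barcodes were deeper, with medians of 12267 to 12456 UMIs against 4059.5 to 4334.5. RNA free in the droplets, taken from barcodes with 100 UMIs or fewer, could give at most 51.6 CPM of the family in resting and 38.9 CPM in dividing T cell-like barcodes.

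Of 67 members, 60 passed the filter of 30 UMIs over the fit. Of these, 54 rose and 2 fell in dividing T cell-like barcodes (edgeR's quasi-likelihood test with the library as a block, adjusted p under 0.05 over 12875 genes), where 20.5% of all genes rose and 18.4% fell. The median fold was 2.16 on the log2 scale against -0.04 for all genes tested. Without that filter, 54 rose and 3 fell. The replicates in this test are the 3 libraries, which belong to different groups, so its p-values measure whether the difference between states repeats over these libraries.

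Among the H1 genes, Hist1h1b (H1.5) showed the widest step. It had 26.6, 23.7 and 28.0 CPM in resting T cell-like barcodes of PBS, PD-L1 and AI-Exo, and 443, 725 and 738 CPM in dividing ones, a log2 fold of 4.55 ± 0.15 (SE, n = 3 libraries, edgeR adjusted p = 3.2e-11). Hist1h1e (H1.4) went from 118, 138 and 140.2 CPM to 313, 484 and 467.5 CPM. Every dividing value of both genes lay above every resting one. Hist1h1d (H1.3) rose by 1.62 ± 0.11 and Hist1h1a (H1.1) by 2.32 ± 0.17 on the same scale. Hist1h1c (H1.2), in contrast, had 416, 371 and 285 CPM in resting and 226, 232 and 232 CPM in dividing barcodes. It had a log2 fold of -0.63 ± 0.11 (edgeR adjusted p = 0.00054), and again the states did not overlap. Hist1h1t stayed under the filter.

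H2A and H3 held the largest increases. Hist1h3c, an H3 gene, had 17 UMIs in all resting T cell-like barcodes together, or 0.496, 0.259 and 1.21 CPM by library, and 124.5, 110.4 and 101.1 CPM in dividing ones. Its ratio of summed CPM was 156 (95% exact counting interval 96.8 to 270.2, counting error only), and its fitted log2 fold was 7.27 ± 0.25 (edgeR adjusted p = 3.8e-11). Hist1h2af, an H2A gene, went from 0.620, 0.647 and 0.439 CPM to 75.4, 72.5 and 63.6 CPM, and Hist1h2ab, also H2A, from 0.620, 1.42 and 0.659 CPM to 63.9, 106 and 92.7 CPM. These 3 genes were near the limit of detection outside dividing barcodes. Hist1h2ae, an H2A gene with more resting signal, went from 18.6, 19.7 and 12.2 CPM to 250.1, 304 and 281 CPM. Of the tested members, 13 of 15 H2A and all 11 H3 genes rose.

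Hist3h2a, an H2A gene outside the large cluster, was the other member that fell. It had 75.5, 57.4 and 31.8 CPM in resting T cell-like barcodes and 24.0, 30.7 and 22.7 CPM in dividing ones, a log2 fold of -0.93 ± 0.18 (edgeR adjusted p = 0.00094). The states did not overlap, but the AI-Exo resting and the PD-L1 dividing value were close.

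In H2B, 14 of 16 tested genes rose. Hist1h2bc, the member with most UMIs, did not pass: it had 446, 294 and 205 CPM in resting and 283, 241 and 237 CPM in dividing T cell-like barcodes, so the states overlapped (log2 fold -0.25 ± 0.13, edgeR adjusted p = 0.16). Hist1h2be went from 52.8, 46.5 and 33.7 CPM to 103.9, 85.1 and 71.2 CPM. In H4, 12 of 13 genes rose, with a median of 1.23 on the log2 scale against 2.68 in H3. Hist1h4i had 128, 82.3 and 54.8 CPM in resting and 235, 199 and 163 CPM in dividing barcodes, and Hist1h4d 68.7, 67.2 and 52.6 CPM against 194, 251 and 226 CPM.

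**Figure D1:**
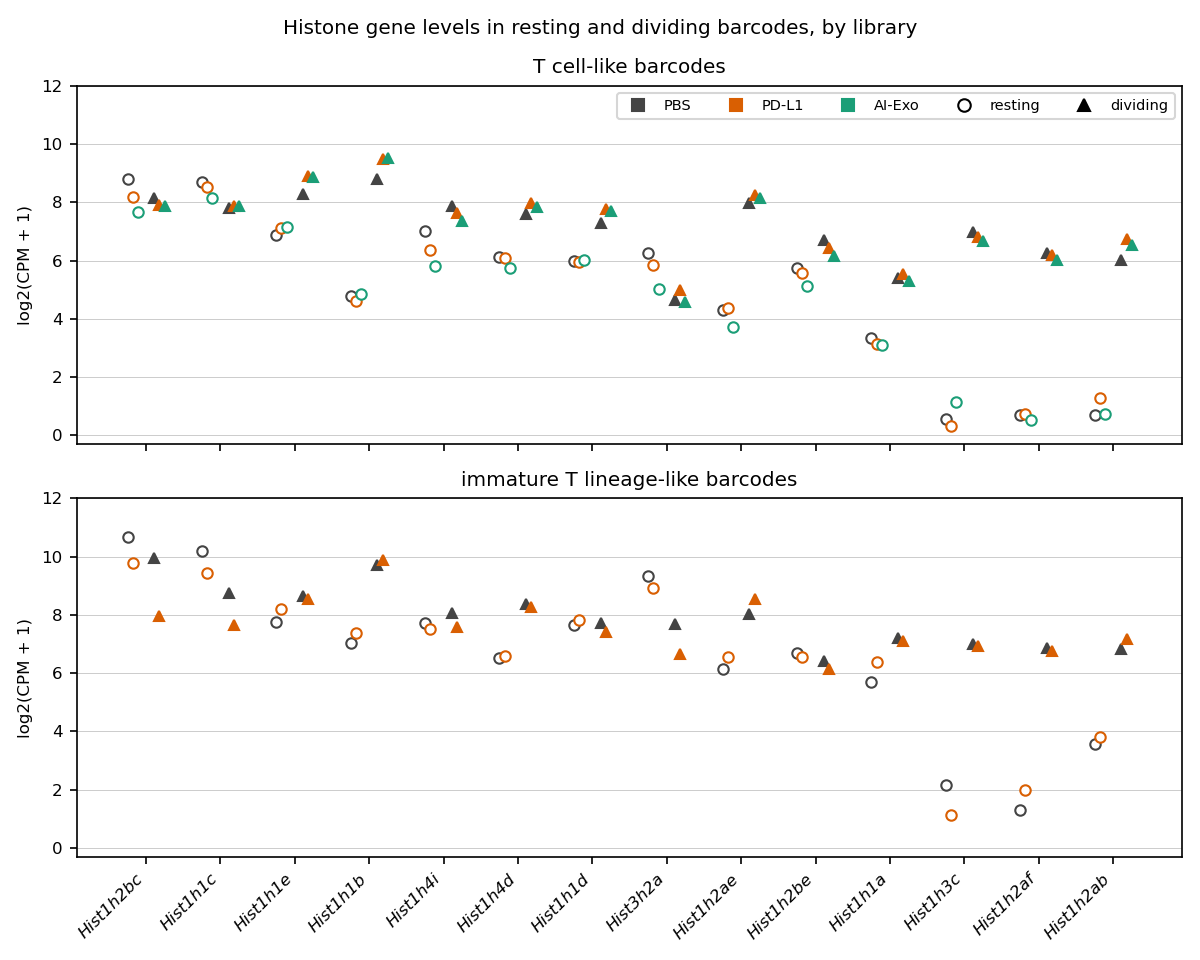
Level of 14 histone genes as log2 of CPM plus 1 (vertical axis) in resting (open circles) and dividing (filled triangles) barcodes, 1 point per library, in T cell-like (top) and immature T lineage-like (bottom) barcodes. Hist1h3c, Hist1h2af and Hist1h2ab are near the floor in resting T cell-like barcodes, while Hist1h1c and Hist3h2a lie lower in dividing than in resting ones.

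The PBS sum of dividing T cell barcodes also held the neutrophil markers at 3808 CPM, against 85.9 CPM in PD-L1 and 381 CPM in AI-Exo. Without the PBS library 53 members rose and 2 fell. With every barcode of at least 1000 UMIs thinned to 1000, so that depth no longer differs, 24 members rose. The states stayed as gated at full depth, so this fit rests on fewer UMIs per barcode. For this and the other thinned fits below, the share of all genes that rose is not given.

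Within each state, the immature T lineage carried the highest family sums of the gated types with at least 30 barcodes in a library. They were 5644 and 4571 CPM in resting and 6471 and 5206 CPM in dividing barcodes of PBS and PD-L1. Here 62 members passed the filter, 38 rose and 4 fell, where 25.2% of all genes rose and 20.7% fell (edgeR, 2 libraries), and the members' median was 1.25 on the log2 scale against 0.02 for all genes. Hist1h3c had 3.43 and 1.18 CPM in resting and 126 and 122 CPM in dividing barcodes (log2 fold 5.98 ± 0.33). Hist1h2af had a fold of 5.98 ± 0.32 and Hist1h3b, an H3 gene, of 4.34 ± 0.46, and each of the 3 had under 10 UMIs in resting barcodes. Hist1h1b went from 129.8 and 164 CPM to 847 and 936 CPM. Hist1h1d did not pass, with 199 and 228 CPM in resting and 208 and 168 CPM in dividing barcodes.

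Hist3h2a fell in the immature T lineage from 643 and 479.5 CPM to 206 and 100.7 CPM (log2 fold -1.63 ± 0.22). Hist1h1c fell from 1170 and 689 CPM to 430 and 202.5 CPM (-1.29 ± 0.23). Neither gene overlapped between states. Hist1h2bc had 1645 and 890 CPM in resting and 998 and 246 CPM in dividing barcodes (-0.97 ± 0.28), so the PBS dividing sum lay above the PD-L1 resting one, and the call was lost without the library block (edgeR adjusted p = 0.23). Hist3h2ba, an H2B gene, went from 364 and 313 CPM to 237 and 102 CPM (-0.81 ± 0.22), and this call was lost without the block as well (edgeR adjusted p = 0.070), which left Hist3h2a and Hist1h1c. Depth differed widely here, with medians of 2877 and 2776.5 UMIs in resting and 16625 and 22222 in dividing barcodes. When thinned to 1000 UMIs, 21 members rose.

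In alveolar macrophage-like barcodes 26 of 41 tested members rose and 1 fell, where 9.54% of all genes rose and 6.7% fell. The members' median was 1.72 on the log2 scale against 0.00 for all genes. Hist1h1b went from 5.45, 5.66 and 7.31 CPM to 237.5, 169 and 179.5 CPM (log2 fold 4.81 ± 0.15). Hist1h3c and Hist1h2af had 2 UMIs each in resting barcodes and 150 and 147 in dividing ones, ratios of 190 (95% counting interval 51.7 to 1583) and 186 (50.6 to 1551), and Hist1h2ab had a log2 fold of 4.96 ± 0.47. The gene that fell was Hist1h2bc, from 245, 180 and 151 CPM to 151, 110 and 116 CPM (-0.68 ± 0.11, edgeR adjusted p = 0.00029). Within each library the dividing value of Hist1h2bc lay below the resting one, although the PBS dividing value was close to the AI-Exo resting one. Thinned to 1000 UMIs, 4 members rose.

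In cDC1-like barcodes, the type 1 dendritic cells that present antigen to CD8 T cells, 22 of 37 tested members rose, where 6.62% of all genes rose and 2.38% fell, and the median was 1.42 against -0.02. None fell in edgeR's test, in DESeq2 or at an unadjusted p under 0.05 (0 in each). Hist1h2af had 0 UMIs in resting cDC1-like barcodes of all 3 libraries and 64.2, 42.1 and 36.6 CPM in dividing ones, at least 55.4-fold higher when 3 counts over the resting group are taken as the floor. Hist1h3c (4.58 ± 0.39 on the log2 scale) and Hist1h2an, an H2A gene (4.23 ± 0.50), came next. By DESeq2 13 members rose, and 1 rose when thinned to 1000 UMIs.

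In macrophage-like barcodes, tested in PBS and AI-Exo, 14 of 41 members rose, where 3.49% of all genes rose and 2.38% fell, and the median was 0.98 against -0.01. None fell in edgeR's test or in DESeq2, and 2 were lower at an unadjusted p under 0.05. Hist1h3c had 0.324 and 1.67 CPM in resting and 32.4 and 52.4 CPM in dividing barcodes (5.35 ± 0.46). Hist1h2af had 3 UMIs in resting and 58 in dividing barcodes, a ratio of 37.6 (95% counting interval 12.3 to 187.9), and Hist1h2ab a log2 fold of 4.08 ± 0.47. By DESeq2 6 members rose, without the library block 6, and thinned to 1000 UMIs 0. Resting macrophage barcodes of PBS held platelet markers at 3788 CPM, against 545 CPM in AI-Exo, and their part in these values was not tested. Whether macrophages themselves gave these counts was not tested either.

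Of 34 members tested in all 5 types, 12 rose in all 5: Hist1h1b, Hist1h2ab, Hist1h2ae, Hist1h2af, Hist1h2an, Hist1h2ap, Hist1h2bj, Hist1h3c, Hist1h3e, Hist1h4d, Hist1h4i and Hist2h2ac. Every class of histone is among them. The share of all genes that rose in all 5 types was not counted. Single-type shares of all genes ran from 3.49% in macrophages to 25.2% in the immature T lineage. In macrophages Hist1h2an, Hist1h2bj, Hist1h3e, Hist1h4d, Hist1h4i and Hist2h2ac, all among the 12, were not called without the library block. Hist1h1c, Hist1h2bc, Hist3h2a and Hist3h2ba were the 4 members that fell in at least 1 type. In cDC1-like barcodes Hist1h1c had 240.1, 223 and 312 CPM in resting and 278, 327.5 and 259 CPM in dividing barcodes, which overlap (log2 fold 0.11 ± 0.15), and Hist3h2ba rose there (1.57 ± 0.41).

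**Figure D2:**
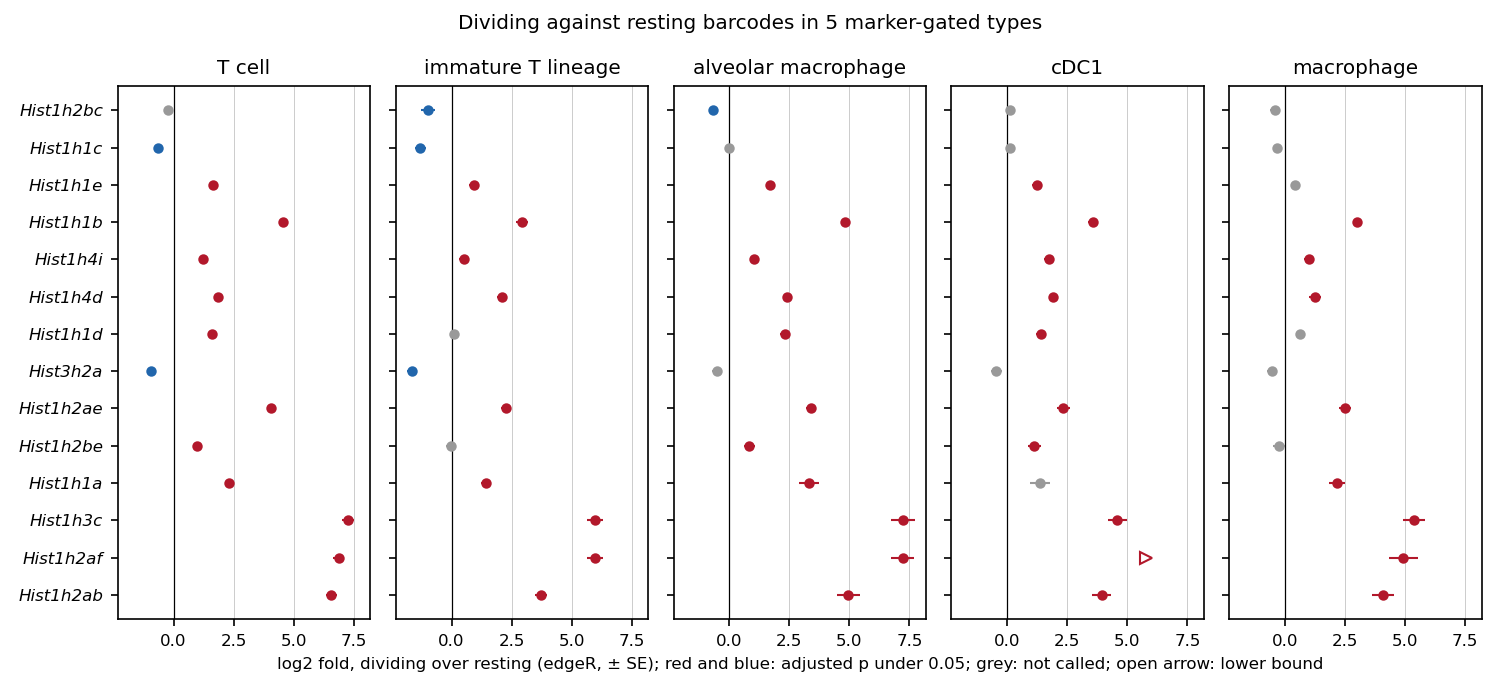
Fitted log2 fold of dividing over resting barcodes (horizontal axis, points with SE) for the same 14 genes in 5 gated types. Hist1h1b, Hist1h2ae and Hist1h3c are red, that is called higher, in every panel, whereas Hist1h2bc, Hist1h1c and Hist3h2a lie left of 0 or within 0.11 of it. The open arrow for Hist1h2af in cDC1 is a lower bound.

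The size of the step was compared between types by the interaction of type and state, a test added after the single-type results were seen. The step was larger in T cell-like than in immature T lineage-like barcodes for 17 of 62 members and smaller for 0, at an adjusted p under 0.05 in edgeR over PBS and PD-L1, where 3.31% of all genes differed in either direction. Hist1h1b had a difference of 1.70 ± 0.30 on the log2 scale, Hist1h2ae of 1.69 ± 0.25, Hist1h1d of 1.60 ± 0.26 and Hist1h2be of 1.08 ± 0.23. Resting immature T lineage-like barcodes held these genes at higher levels: Hist1h2ae had 69.0 and 93.1 CPM there against 18.6 and 19.7 CPM in resting T cell-like barcodes of the same libraries. Against cDC1, 4 of 60 members had a larger and 1 a smaller step in T cell-like barcodes, where 6.93% of all genes differed, and the 1 was Hist1h1c (-0.91 ± 0.20). Against alveolar macrophages, 3 of 61 were larger and 0 smaller, where 17.3% of all genes differed.

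The step differed with where the annotated transcript ends. In GENCODE M21, 23 members have a transcript that runs over 100 bases past the stem-loop, 23 end within 100 bases of it, and 21 have no stem-loop in the annotated transcript. Members with the long ends took 56.8% of the family's UMIs, those with near ends 10.4% and those without an annotated stem-loop 32.8%. In T cell-like barcodes the median log2 fold was 1.42 for long ends (17 of 21 rose, 2 fell), 2.95 for near ends (22 of 22 rose) and 2.78 where no stem-loop is annotated (15 of 17 rose). In the immature T lineage the 3 medians were 0.55, 2.12 and 1.38, and long ends had the lowest of the 3 medians in alveolar macrophages (1.04), cDC1 (1.25) and macrophages (0.43) as well. Only 11, 10 and 13 of the 23 near-end members passed the filter in these last 3 types, against 20, 18 and 18 of the 23 with long ends. The filter sums UMIs over both states, so a member with few UMIs can pass through its dividing barcodes. The part of the filter in these medians was not tested. Hist1h1c has 840 bases and Hist3h2a 1643 bases annotated past the stem-loop, Hist1h3c has 74 and Hist1h2ab 11. Hist1h2bc has 2 exons and no stem-loop in the annotation. These groups were formed with earlier results on the genes known, so the medians are a description with no test. Members with near ends also have fewer UMIs, with a median of 1247 against 4383 for long ends and 857 without an annotated stem-loop. The part of the UMI number in the difference was not tested.

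**Figure D3:**
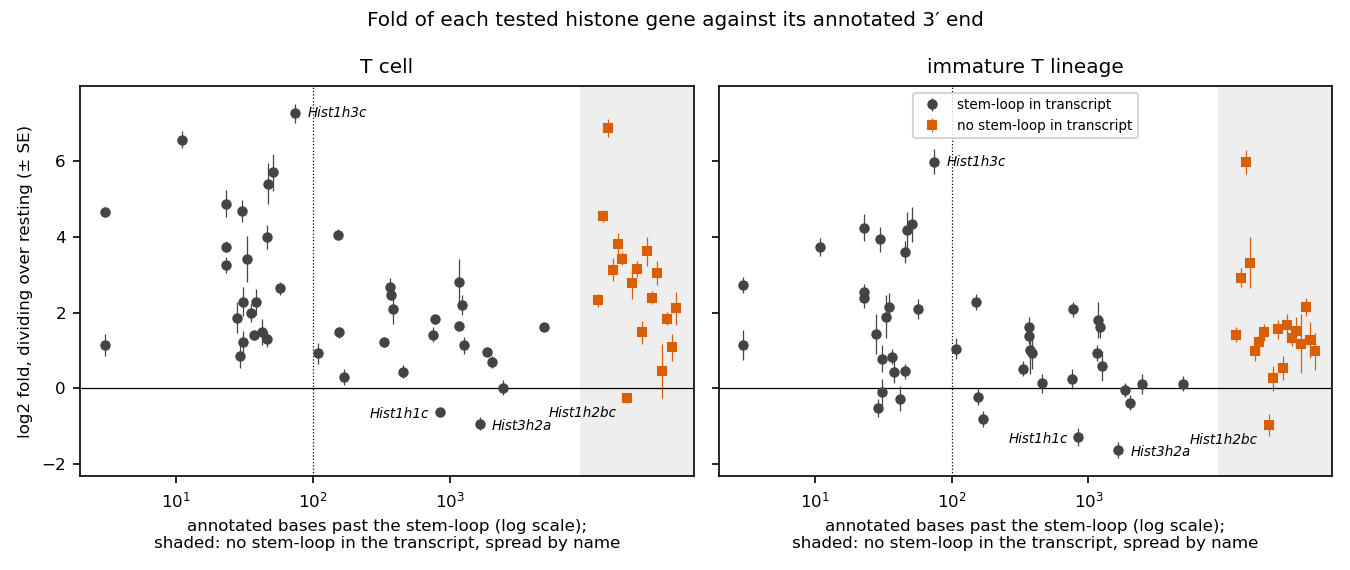
Fitted log2 fold of dividing over resting barcodes (vertical axis, SE) against the annotated bases past the stem-loop (horizontal axis, log scale; dotted line at 100) for each tested member, in T cell-like (left) and immature T lineage-like (right) barcodes. Squares in the shaded strip have no stem-loop in the annotated transcript. Hist1h3c is at the top left, and Hist1h1c and Hist3h2a lie lowest, at 840 and 1643 bases.

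Dividing barcodes were then split by whether genes of S phase or of G2 and M phase weighed more. The histone genes are known for S phase, yet few members were higher in S-leaning barcodes. Over all types, 0 of 62 tested members were higher and 9 were lower in S-leaning barcodes, where 2.96% of all genes were higher and 2.14% lower, and the members' median was -0.36 on the log2 scale against 0.00 for all genes (edgeR, 3 libraries). DESeq2 also called 0 higher, and 1 was higher at an unadjusted p under 0.05. The lowest were Hist1h2bp (-0.80 ± 0.18), an H2B gene, Hist3h2ba (-0.73 ± 0.10) and Hist1h2bc (-0.63 ± 0.08), and Hist1h3c was lower too (-0.58 ± 0.10). These calls moved with the libraries used: without PD-L1 4 were lower, without AI-Exo 4 were lower and 2 higher, and without the library block 0 were lower.

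In the immature T lineage, 2 members were higher in S-leaning barcodes, Hist1h1b (0.66 ± 0.14) and Hist1h1a (0.51 ± 0.14), and 3 were lower, Hist2h3c1 (-1.43 ± 0.36), Hist1h2bc (-1.15 ± 0.14) and Hist3h2ba (-0.80 ± 0.14), where 2.87% of all genes were higher and 2.07% lower. Without the library block 0 were called in either direction. In T cell-like barcodes, tested in PD-L1 and AI-Exo, none of 58 members was called in either direction by edgeR or DESeq2, where 0.374% of all genes were higher and 0.571% lower. At an unadjusted p under 0.05, 0 were higher and 27 lower, and the median was -0.64 against 0.00. The share of all genes past that unadjusted threshold is not given here, so the 27 have no background to stand against.

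Genes whose products carry histones rose with division as well. Of 12 histone chaperones and deposition factors, 10 rose in T cell-like, 12 in immature T lineage-like, 10 in alveolar macrophage-like, 10 in cDC1-like and 9 in macrophage-like barcodes. Of all genes 20.5%, 25.2%, 9.54%, 6.62% and 3.49% rose in the same types, and the counts of the next lists stand against the same shares. The chaperones had list medians of 1.42, 2.13, 1.06, 1.22 and 1.07 on the log2 scale in that order. Asf1b, which hands H3 and H4 to assembly factors, was the highest in T cell-like barcodes (4.17 ± 0.19), and Rbbp4, a histone-binding subunit of several chromatin complexes, the lowest that rose (0.91 ± 0.10). Asf1b was also the highest in alveolar macrophages (4.42) and cDC1 (3.99). Chaf1a, the large subunit of the assembly factor CAF-1, led in the immature T lineage (4.14) and macrophages (3.10), where Asf1a (1.07) and Rbbp4 (0.80) were the lowest that rose. Ipo4, an importin for H3 and H4, fell in alveolar macrophage-like barcodes (-1.52 ± 0.49). In S-leaning barcodes over all types, 8 of the 12 were higher, where 2.96% of all genes were, with Chaf1b, another CAF-1 subunit, at 1.57 ± 0.12 and Rbbp7 lowest at 0.31 ± 0.07.

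Of 18 genes that transcribe or process histone mRNA (17 tested outside T cells), 10 rose in T cell-like, 12 in immature T lineage-like, 7 in alveolar macrophage-like, 5 in cDC1-like and 1 in macrophage-like barcodes with division. Slbp, the stem-loop binding protein, rose in T cell-like barcodes by 1.09, in the immature T lineage by 1.65, in alveolar macrophages by 1.30 and in cDC1 by 1.16 on the log2 scale. It was also higher in S-leaning barcodes over all types (1.17) and in the immature T lineage (1.44). Cdk2, the kinase partner of cyclin E, was the highest in T cell-like barcodes (1.96) and Ncbp1, of the cap-binding complex, the lowest that rose (0.43). Npat, the coactivator of histone genes, passed in alveolar macrophage-like barcodes (1.11) and had 0.34 in T cell-like ones, which did not pass. Casp8ap2 (FLASH), which joins U7 at the cut, rose by 0.81 in T cell-like and 0.83 in immature T lineage-like barcodes. Ccne1, cyclin E1, rose in all 5 types, by at least 1.62 on the log2 scale.

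Replication-independent histone genes lie outside the family, and most of them make polyadenylated mRNAs. Of 10 tested in T cell-like barcodes 8 rose. H2afx, whose protein is phosphorylated at DNA breaks, rose by 3.22 there, Cenpa, the centromeric H3, by 2.84, and H2afz (H2A.Z) by 2.38. H2afx was also the highest in the immature T lineage (3.57) and macrophages (2.12), and Cenpa in alveolar macrophages (3.99) and cDC1 (3.46). H2afj fell in alveolar macrophages (-0.35). H3f3b, which encodes H3.3, had a log2 fold of 0.12 in T cell-like barcodes, which did not pass, and rose in alveolar macrophages (0.32 ± 0.06). H1f0, a linker histone known from cells that have left the cycle, rose in T cell-like barcodes (0.76 ± 0.15) and fell in the immature T lineage (-0.64 ± 0.20). In S-leaning barcodes over all types, 4 of 10 were lower, where 2.14% of all genes were, with Cenpa at -2.06 ± 0.10 and H2afx at -1.15 ± 0.09.

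Resting barcodes of different types differed in the share of histone UMIs among those captured. The family sum was 3256, 2866 and 2202 CPM in resting B cell-like barcodes of PBS, PD-L1 and AI-Exo, 3167, 2442 and 2288 CPM in NK cell-like and 2365, 2362 and 1395 CPM in monocyte-like ones. It was 1429, 1497 and 1073 CPM in macrophage-like, 1362, 1314 and 1265 CPM in neutrophil-like and 642, 502 and 447 CPM in alveolar macrophage-like barcodes. Alveolar macrophages lay below the other 6 tested types in every library, and B cells and NK cells overlapped over the libraries. Each of 7 types was tested against the mean of the other 6 over 15631 genes in edgeR, and 59 members passed the filter.

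Alveolar macrophage-like barcodes were low across the family: 53 of 59 members were lower and 1 higher, where 28.9% of all genes were lower and 30.9% higher, and the median was -1.97 on the log2 scale against -0.11. Hist1h1c had 124, 118 and 104 CPM there, against at least 285 CPM in every library of resting T, B and NK cell-like, monocyte-like and neutrophil-like barcodes. Macrophage-like barcodes are not in that list, and Hist1h1c was called lower in them as well, as given below. The lowest were Hist1h3h (-3.30 ± 0.93), Hist1h4j (-3.28 ± 0.65) and Hist1h2br (-2.70 ± 0.46). Hist2h3c1, whose sequence is fully shared with other copies, was the 1 member higher (1.17 ± 0.41), and it was not called without the AI-Exo library.

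In monocyte barcodes 36 members were higher, where 26.8% of all genes were higher and 19.1% lower, and 0 lower by edgeR, DESeq2 or an unadjusted p under 0.05, with a median of 0.97 against 0.01. Hist1h2ae (1.76 ± 0.14), Hist1h2ap (1.70 ± 0.17) and Hist1h3d (1.63 ± 0.17) led, and Hist1h2ae had 41.0, 56.2 and 21.4 CPM against at most 28.1 CPM in any library of the other 6 types. The chaperones did not share that direction: 9 of 12 were lower in monocytes, where 19.1% of all genes were, with Asf1b lowest (-1.76 ± 0.45). The PBS monocyte barcodes also held alveolar macrophage markers at 3581 CPM, against 416 and 787 CPM in PD-L1 and AI-Exo. Ear2 is in both marker lists, and whether monocytes themselves gave these counts was not tested. Without PBS 24 members were higher.

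NK cell-like barcodes had 30 members higher and 1 lower, where 20.1% of all genes were higher and 18.6% lower, with a median of 0.91. All 5 tested H1 genes were higher. Hist1h1d had 144, 118 and 200.6 CPM (1.72 ± 0.16), and the highest fitted values were those of Hist1h3h (2.29 ± 0.62), Hist2h3b (2.22 ± 0.47) and Hist1h2ak (2.13 ± 0.43). Hist2h3c1 was the 1 lower (-2.68 ± 1.04), and it was not called without PD-L1 or without AI-Exo. In B cell-like barcodes 23 were higher and 2 lower, where 35.9% and 25.5% of all genes were, a share of higher members close to the background. There Hist1h2bc had 1201, 882 and 675 CPM (1.24 ± 0.13) and Hist1h1c 954, 943 and 657 CPM (1.23 ± 0.10), and Hist1h2bf (1.36 ± 0.17), Hist1h2br (1.33 ± 0.24) and Hist3h2ba (1.31 ± 0.18) were highest. The lower ones were Hist2h3c2 (-2.30 ± 0.95) and Hist2h2aa1 (-0.53 ± 0.20), and 0 were lower without PD-L1 or without AI-Exo.

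In neutrophil-like barcodes 8 of 59 members were higher and 20 lower, where 31.1% of all genes were higher and 32.9% lower, so the lower members are at the background share. The median was -0.55 against -0.11. Under the RLE scaling and under DESeq2 13 were lower. Hist2h2aa1 (1.32 ± 0.19), Hist1h1c (1.21 ± 0.10) and Hist1h2be (1.21 ± 0.10) were the highest, and Hist1h1c had 604, 453 and 480 CPM. Hist1h1b, by contrast, had 8.68, 9.63 and 12.8 CPM and was lower (-0.70 ± 0.17), and the lowest were Hist2h2be (-1.93 ± 0.37), Hist1h2bf (-1.45 ± 0.30) and Hist3h2ba (-1.40 ± 0.28). Slbp was higher in neutrophils (1.08 ± 0.11), where 9 of 12 chaperones were lower.

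In resting T cell-like barcodes 14 were higher and 5 lower, where 33.3% and 22.1% of all genes were, and without PD-L1 8 were higher. Hist3h2ba (1.46 ± 0.17), Hist1h4k (1.39 ± 0.45) and Hist1h3h (1.15 ± 0.44) led. Hist1h2bc (-0.71 ± 0.16), Hist1h1e (-0.48 ± 0.15) and Hist1h1c (-0.34 ± 0.11) were lower, along with Hist1h3d (-0.60 ± 0.19) and Hist2h2aa1 (-0.50 ± 0.20). Macrophage-like barcodes had 3 higher and 4 lower, where 21.1% and 15% of all genes were. Hist2h3c1 (1.80 ± 0.43), Hist3h2ba (0.69 ± 0.23) and Hist3h2a (0.60 ± 0.13) were higher, and Hist1h1e (-0.98 ± 0.17), Hist1h1c (-0.82 ± 0.12), Hist1h2be (-0.59 ± 0.13) and Hist1h1d (-0.58 ± 0.19) lower.

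The other lists are given for the resting types beside the shares of all genes. Of the chaperones, 7 of 12 were higher in NK cells (20.1% of all genes), 8 in T cells (33.3%) and 6 in B cells (35.9%). In alveolar macrophages 6 were higher and 3 lower (30.9% and 28.9%), the lower ones near the background share. Replication-independent histone genes were higher in monocytes in 7 of 10 (26.8% of all genes), with H2afy (macroH2A) at 1.13 and H2afz at 1.08 on the log2 scale, and lower in alveolar macrophages in 7 of 10 (28.9%). H3f3b was at 2.21 in neutrophils. Of the processing genes, 12 of 18 were higher in B cells (35.9%) and 11 of 18 lower in neutrophils (32.9%), and Npat was lower in alveolar macrophages (-1.57).

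**Figure D4:**
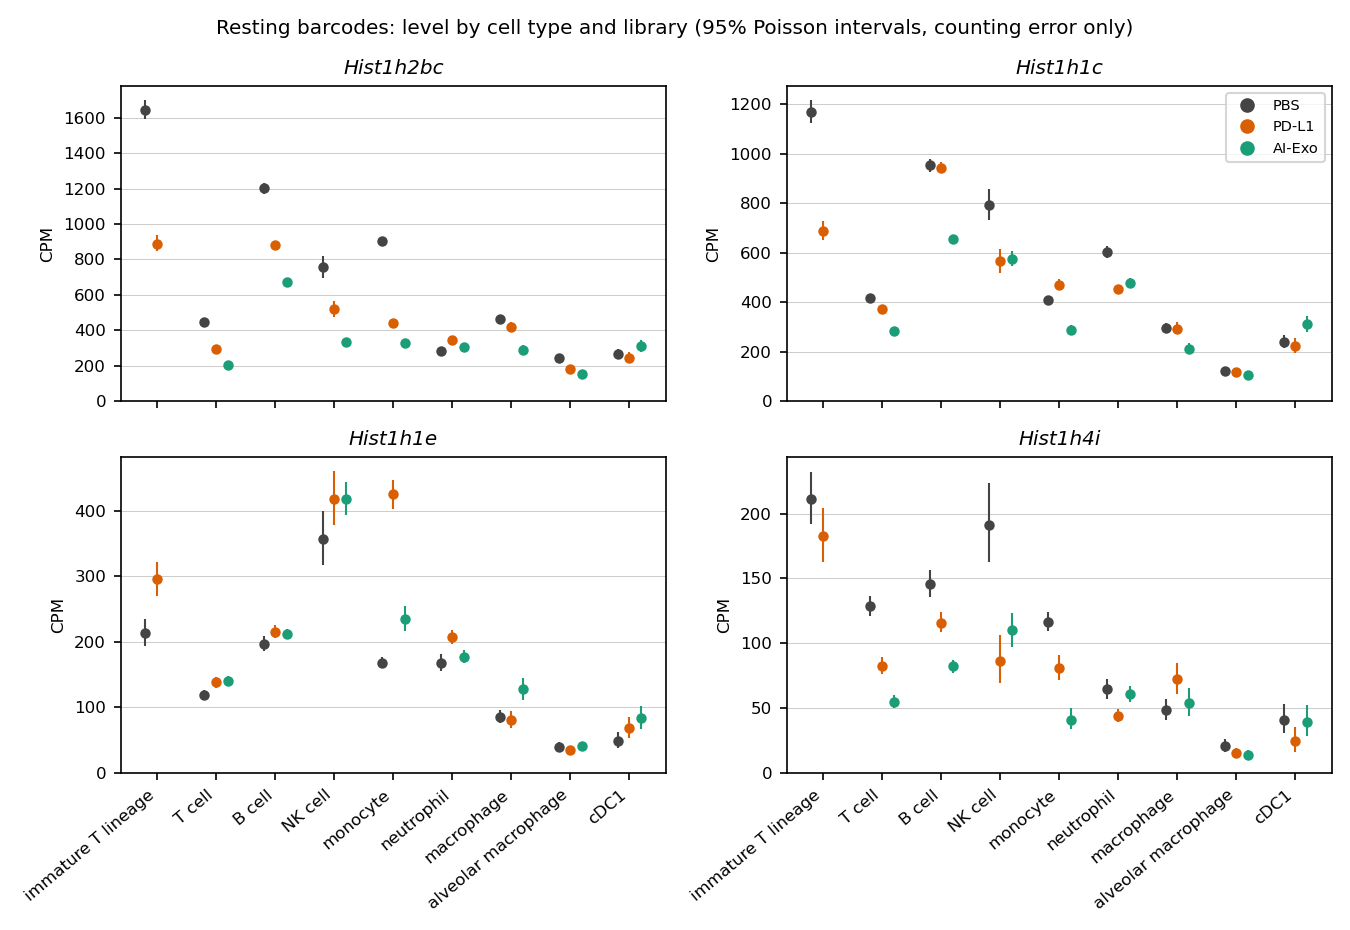
CPM (vertical axes, from 0) of Hist1h2bc, Hist1h1c, Hist1h1e and Hist1h4i in resting barcodes of 9 gated types, 1 point per library, with 95% Poisson intervals for counting error. Hist1h2bc is lower in AI-Exo than in PBS in T, B, NK, monocyte, macrophage and alveolar macrophage-like barcodes, and it is not in neutrophil-like and cDC1-like ones.

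The 3 libraries were compared within each type. There is 1 library per group, so these differences have no replicate check, and the group cannot be told apart from the library. Both comparisons use the same PBS library. A gene was called by size at a 1.5-fold ratio of CPM plus 10, among genes with a mean of at least 10 CPM. In resting barcodes the family sum was lower in AI-Exo than in PBS in all 7 types compared: the log2 ratio was -0.56 in B cells, -0.59 in T cells, -0.47 in NK cells, -0.76 in monocytes, -0.41 in macrophages, -0.51 in alveolar macrophages and -0.11 in neutrophils. For all genes the median ratio lay between -0.06 and 0.02 in the same types. For PD-L1 against PBS the ratios in these types ran from -0.37 in NK cells to 0.07 in macrophages. Dividing T cell-like barcodes had ratios above 0, with 0.29 for PD-L1 and 0.14 for AI-Exo, and dividing alveolar macrophages below 0, with -0.14 and -0.30. Some of the PBS sums that these ratios divide by held UMIs of other types' marker lists. These were the neutrophil list in dividing T cells (3808 CPM), the alveolar macrophage list in resting monocytes (3581 CPM) and the platelet list in resting macrophages (3788 CPM). Ear2 is in both the monocyte and the alveolar macrophage list. Whether the types' own genes gave these counts was not tested, nor was the part of these counts in the ratios.

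By member, the low value in AI-Exo fell on some genes and not on others, and 0 members were higher by size in any of the 7 resting types. In resting B cells 6 of 21 members at 10 CPM were lower, where 1.11% of all genes were lower and 0.158% higher. In resting T cells 5 of 20 were lower (0.61% lower and 0.766% higher over all genes). In NK cells 12 of 28 were lower (4.51% and 1.83%), and in monocytes 7 of 20 (3.93% and 5.77%). In macrophages 5 of 15 were lower (4.08% and 4.38%), in alveolar macrophages 2 of 10 (1.71% and 1.95%), and in neutrophils 0 of 10 (2.43% and 4.2%).

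Hist1h2bc was lower by size in AI-Exo in 6 of the 7 types. It went from 446 CPM in PBS to 205 CPM in AI-Exo in T cells, from 1201 to 675 CPM in B cells, from 755 to 335 CPM in NK cells and from 902 to 330 CPM in monocytes. In neutrophils it had 283 CPM in PBS and 306 CPM in AI-Exo. Hist1h2ac, an H2A gene, was lower in 5 of 7 types, with 60.0 and 33.5 CPM in B cells, and Hist1h4i and Hist3h2a in 4 each. Hist1h4i had 128 and 54.8 CPM in T cells, and 64.4 and 60.7 CPM in neutrophils. Hist1h1e, in contrast, was lower in none of the 7: its log2 ratios ran from 0.03 to 0.53. Hist1h1c had negative ratios in all 7 types (-0.53 to -0.23), none past the size.

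PD-L1 lay between PBS and AI-Exo for Hist1h2bc in resting T, B, NK and monocyte-like barcodes, with 294, 882, 520.5 and 439 CPM. By size, PD-L1 had 0 of 22 members called in resting B cells (0.671% of all genes higher and 0.763% lower), 0 higher and 1 lower of 20 in T cells (0.882% and 0.409%), and 0 higher and 5 lower of 28 in NK cells (4.69% and 4.04%). It had 0 of 9 called in neutrophils (3.54% and 3.73%), 2 higher and 0 lower of 19 in macrophages (3.45% and 2.88%) and 0 of 9 in alveolar macrophages (0.611% and 0.359%). In monocytes 7 of 25 were higher and 2 lower (9.9% and 8.6%), and Hist1h1e had 425 CPM in PD-L1, against 168 in PBS and 234.5 in AI-Exo.

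In the immature T lineage PD-L1 had 890 CPM of Hist1h2bc in resting barcodes, against 1645 in PBS, and 246 against 998 CPM in dividing ones. By size, 5 of 40 members were higher and 2 lower in resting barcodes (2.89% and 1.87% of all genes). In dividing ones 0 of 50 were higher and 7 lower (0.699% and 2.83%), and the 7 included Hist1h1c, Hist3h2a and Hist3h2ba. In dividing T cells PD-L1 had 7 of 51 members higher and 0 lower (7.13% and 3.69%), and AI-Exo 1 of 47 higher and 2 lower (4.74% and 3.4%). In dividing alveolar macrophages 0 of 27 were higher and 3 lower in PD-L1 (5.26% and 5.77%), and 0 higher and 2 lower in AI-Exo (3.34% and 4.0%). In dividing cDC1, PD-L1 had 4 of 34 higher and 2 lower (9.82% and 4.95%), and AI-Exo 2 of 35 higher and 6 lower (10.1% and 2.85%).

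**Figure D5:**
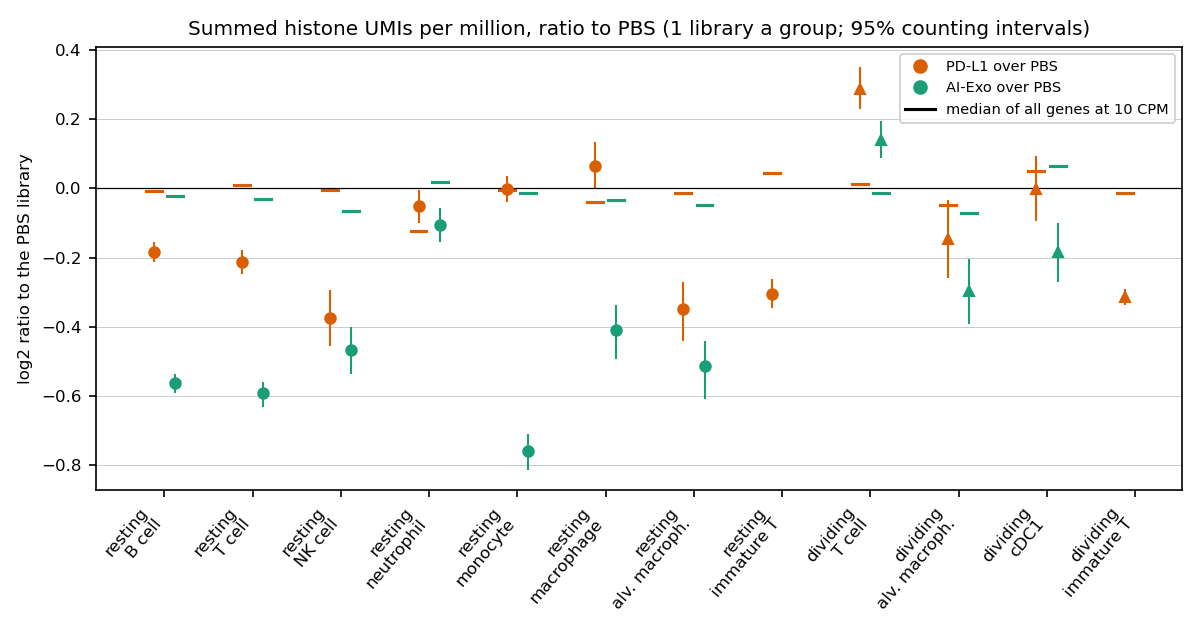
Log2 ratio to PBS of the summed CPM of the 67 members (vertical axis; bars are 95% counting intervals) in each gated type, for PD-L1 and AI-Exo, with resting types as circles and dividing types as triangles. Short lines give the median ratio of all genes at 10 CPM. AI-Exo lies below 0 in every resting type shown, and both libraries lie above 0 in dividing T cells.

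The share of barcodes that were dividing differed between libraries in some types. In T cell-like barcodes it was 2.91% in PBS (95% exact binomial interval 2.20 to 3.76), 5.22% in PD-L1 (4.23 to 6.38) and 11.2% in AI-Exo (9.90 to 12.6), and after thinning to 1000 UMIs 0.946%, 1.68% and 4.06%. The thinned shares leave out 24, 13 and 11 shallower T cell-like barcodes. Intervals cover counting error only. In alveolar macrophage-like barcodes the shares were 10.7%, 12.6% and 26.1%, and thinned 4.33%, 4.17% and 8.22%. In macrophage-like barcodes they were 18.1%, 12.9% and 17.7%, with overlapping intervals, as for cDC1 when thinned (4.29%, 3.91% and 4.85%). Over all barcodes the thinned shares were 1.83%, 2.55% and 2.27%, where PD-L1 was highest and its interval overlapped that of AI-Exo. Of the 167 and 239 thinned barcodes that counted as dividing in PBS and PD-L1, 89 and 142 were immature T lineage-like. AI-Exo held 0 barcodes of that class, so the order over all barcodes also carries the difference in the types present. AI-Exo had the largest share of dividing T cell-like barcodes of the 3 libraries and the lowest family level in resting ones.

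Over 52 sums of type, state and library, the 5 genes outside the family whose log2 of CPM plus 10 followed the summed family most closely were Trim59, Haus3, Fcho1, Kif18a and 2610020C07Rik, with Pearson r from 0.78 to 0.83. Without Hist1h1c and Hist1h2bc in the family sum they were Ube2s, Dtl, Lockd, Rfwd3 and Eif4a3, with r from 0.85 to 0.86. Sums of 1 library share that library, and the r between the family sum and UMIs per barcode was 0.01 in the first case and 0.22 in the second. These correlations are descriptions and carry no test.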

How the data were processed

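The authors deposited whole-number UMI counts for each gene and barcode, with no normalization. Per the file headers, Cell Ranger 7.1.0 wrote them, while the submitters' processing notes name 3.0.2. Genome build, annotation and intron counting: not given in the sources used here. Members and gene lists were chosen with earlier results of these data known.

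Barcodes with at least 500 UMIs, 200 genes and at most 20% mitochondrial UMIs were kept (scanpy 1.11.5) and gated by 21 marker lists: at least 3 markers, a score of at least 0.2 and a margin of 0.1 over the next list. Barcodes whose 2 best lists lay within the margin stayed ungated, and other doublets were left in, with removal from a Scrublet score of 0.15 as an alternative. Counts were summed per library, type and state, at 30 barcodes or more a sum (100 for resting types), and tested with edgeR 4.0.16 (TMM scaling, quasi-likelihood, library block, summed count of at least 30, Benjamini-Hochberg over all genes). The fits were tested on simulated data. DESeq2 1.42.0, RLE scaling, other filters and gates, thinning to 1000 UMIs and leaving out each library were alternatives. S and G2/M lean was the larger standardized share of 39 and 52 genes that hold no histone, chaperone or processing gene. Nothing says whether a library holds 1 or several animals, so p-values measure the spread between libraries only.

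Named with values were the 10 members with most UMIs, the Hist1h1 genes, the 3 largest changes in each direction per comparison and members called against the majority. Members such as Hist1h2ac and Hist3h2ba in the comparison of libraries were chosen after their values were seen. Of the other lists, counts and leading members were given.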

Additional observations from a re-analysis of the deposited data

Results flagged for a closer look

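Several genes had a step between dividing and resting barcodes that differed between cell types by edgeR's test of the interaction, adjusted over all genes tested. Hist1h1b, an H1 gene, had a larger step in T cell-like than in immature T lineage-like barcodes, with a difference of 1.70 ± 0.30 on the log2 scale (edgeR adjusted p = 0.0099). Hist1h1d, also H1, differed by 1.60 ± 0.26, Hist1h2ae (H2A) by 1.69 ± 0.25 and Hist1h2be (H2B) by 1.08 ± 0.23 in the same direction. All 4 had higher levels in resting barcodes of the immature T lineage than of T cells in both libraries, as with Hist1h1d, at 199 and 228 CPM against 62.8 and 60.7 CPM in PBS and PD-L1.

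Against cDC1, the step of Hist1h2ae was larger in T cell-like barcodes by 1.54 ± 0.33, and that of Hist1h1c, which fell in T cell-like barcodes and did not pass in cDC1-like ones, differed by -0.91 ± 0.20 (edgeR adjusted p = 0.0073). Resting levels of Hist1h2ae overlapped, at 12.2 to 19.7 CPM in T cell-like and 12.3 to 27.1 CPM in cDC1-like barcodes, while dividing barcodes had 250.1 to 304 CPM and 74.2 to 131 CPM. The dividing T cell barcodes of PBS also hold neutrophil markers, and their part in these differences was not tested.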

How the results depend on the processing

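Of the called members, Hist2h4 (1.13, thinned -0.16) and Hist1h4a (0.93, thinned -0.04) changed sign in dividing T cells thinned to 1000 UMIs, where neither passed. They were named after their values were seen, and no other called member changed sign under the alternatives run. The family ratio of PD-L1 to PBS in resting monocytes, near 0 at full depth, was above 0 when thinned. Thinning to 1000 UMIs left the number of members higher in dividing barcodes at 24 in T cells (54 at full depth), 4 in alveolar macrophages (26), 1 in cDC1 (22), 21 in the immature T lineage (38) and 0 in macrophages (14). Such a fit keeps the states gated at full depth, leaves out barcodes under 1000 UMIs and rests on fewer UMIs per barcode. The shares of all genes given above are those at full depth and are no background for the thinned counts. DESeq2 called 13 higher in cDC1 and 6 in macrophages. Without the library block macrophages had 6 higher and the immature T lineage 2 lower, and with doublets removed macrophages had 1 lower. In S-leaning barcodes of all types, 9 were lower, and 4 by DESeq2, 23 with no filter, 0 without the block and 3 thinned, with 1 higher with no filter. In the immature T lineage, 2 were higher there, 1 by DESeq2 and 0 without the block or thinned, and 3 lower, 5 with no filter and 0 without the block. In T cells 11 were lower with no filter.

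Among resting types, B cells had 1 lower without the block, with doublets removed and with no division gene allowed. NK cells had 0 lower by DESeq2, without the block and with no division gene allowed. T cells had 3 lower without the block. Alveolar macrophages had 2 higher with no filter, monocytes 1 lower with no division gene allowed, and neutrophils 5 higher without the block and 13 lower under RLE and DESeq2. The cause was not tested for any of these.

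Leaving out 1 library gave 46 to 53 higher and 2 to 3 lower in T cells, 19 to 26 and 1 in alveolar macrophages and 16 to 19 higher in cDC1. S-leaning barcodes of all types had 0 to 2 higher and 4 to 10 lower. Among resting types it gave 17 to 22 higher and 0 to 1 lower in B cells, 21 to 28 and 0 to 1 in NK cells, 8 to 13 and 3 to 5 in T cells, 0 to 1 and 40 to 50 in alveolar macrophages, 2 to 4 and 3 to 5 in macrophages, 24 to 39 higher in monocytes, and 5 to 8 and 15 to 17 in neutrophils. It was not run for fits of 2 libraries. No paired analysis was possible between the groups because the labels give no replicate numbers and each group is 1 library. States and types were compared within libraries, with the library as a block, and the values without that block are those above.

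For the family ratio to PBS, the mean of thinned barcodes gave -0.67 (AI-Exo) and -0.28 (PD-L1) in resting B cells, -0.39 (AI-Exo) in NK cells, -0.65 and 0.11 in monocytes, -0.25 (AI-Exo) in macrophages, -0.70 and -0.54 in alveolar macrophages and -0.37 (PD-L1) in the immature T lineage. In dividing barcodes it gave 0.22 and 0.42 in T cells, -0.63 and -0.51 in alveolar macrophages, -0.0201 (AI-Exo) in cDC1 and -0.23 (PD-L1) in the immature T lineage. The stricter dividing gate gave 0.20 and 0.38 in T cells, -0.0024 (PD-L1) in alveolar macrophages and -0.38 (PD-L1) in the immature T lineage. Removing doublets gave -0.0424 in AI-Exo neutrophils and -0.0995 in AI-Exo dividing cDC1.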
